A study of Mus musculus with 12 samples.

Results

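The cytochrome P450 genes were followed through 12 bulk RNA-seq libraries of sorted mouse fetal liver (FL) cells. The members were all genes whose name consists of Cyp, a family number, a subfamily letter, and a gene number, which gave 93 of the 38127 genes counted, in 38 subfamilies. All cells came from C57BL/6 embryos and lacked Ter119, a marker of red cells, and CD45, a marker of most other blood cells. The sort gave 4 groups of 3 libraries each: CD54+CD31- cells at E14.5, CD54+CD31- cells at E18.5, CD54+CD31+ cells at E14.5 (hereafter CD31+ cells, endothelial), and CD54-CD31-Kit+CD24+ cells at E14.5 (hereafter Kit+CD24+ cells, erythroid progenitors). No group carried a transgene or received a treatment. The E14.5 CD54+CD31- cells are the population that the study also names after epithelial cadherin and that holds hepatoblasts, the precursors of hepatocytes and bile duct cells. The study describes the E14.5 libraries as coming from separate litters, and for the E18.5 libraries the labels say only that they are biological replicates.

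Cytochrome P450 enzymes carry a heme group and insert an oxygen atom into their substrates, with electrons passed on by P450 oxidoreductase in the endoplasmic reticulum or by ferredoxin in mitochondria. In the liver some of them make bile acids from cholesterol, some oxidize fatty acids, and many, encoded in gene clusters, oxidize drugs and other foreign compounds. Many of the liver genes are known to come on around birth or after it, and others are known for a fetal or neonatal form of expression. Outside hepatocytes, members of the family act in steroid, retinoic acid, and vitamin D metabolism, and several are abundant in airway epithelium.

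Total counts per library ranged from 40714017 to 64368883. Levels are given as CPM, the counts per 1000000 counts of the TMM-adjusted library size, where TMM is edgeR's scaling between libraries. Fold changes and adjusted p values come from edgeR's quasi-likelihood test over all genes that passed its low count filter, and a gene was called when its adjusted p was below 0.05. As the cells were sequenced in bulk, fewer cells of a type and less RNA per cell cannot be told apart. Of the 93 members, 7 overlap exons of another gene on the same strand and 11 on the opposite strand, and the sources used here do not state whether counting used strand. For 32 members, more than 10% of the 50-base windows of their annotated transcripts also occur in another P450 gene, so the split of reads between them is uncertain. The highest shares were 60.3% in *Cyp2c40*, 54.3% in *Cyp2c69*, 52.8% in *Cyp2c67*, 43.8% in *Cyp4a32*, and 43.3% in *Cyp2c68*.

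The E18.5 libraries differed from their label and among themselves, which bears on every age comparison. A list of 20 hepatoblast and hepatocyte genes summed to between 90989 and 104636 CPM in the E14.5 CD54+CD31- libraries. At E18.5 the same sum was 4765 CPM in replicate 1, 54399 in replicate 2, and 71632 in replicate 3. Of the 19 genes of this list that were tested, 6 were called lower at E18.5, 2 were higher, and 11 were not called (median log2 fold change -1.28). The sum of 15 lung epithelial genes went the other way, and was between 72.7 and 82.7 CPM at E14.5. At E18.5 it was 25019 in replicate 1, 11753 in replicate 2, and 11788 in replicate 3, and 14 of the 15 genes were called higher. *Nkx2-1*, a transcription factor of lung and thyroid, had 0 counts in every E14.5 CD54+CD31- library and 377, 259, and 230 CPM in the E18.5 libraries. The summed levels of mesenchymal genes (3904 to 4337 CPM at E18.5 against 117 to 232 at E14.5), cholangiocyte genes (789 to 1184 against 10.5 to 17.2), heart genes (163 to 355 against 0.543 to 1.48), kidney genes (39.1 to 69.0 against 0.444 to 0.792), endothelial genes (197 to 248 against 43.7 to 72.2), and macrophage genes (293 to 563 against 98.5 to 183) were also higher. By gene, all tested mesenchymal (7), cholangiocyte (5), heart (5), and endothelial (8) genes were called higher at E18.5. Of the 6 macrophage genes only 1 was called higher and 5 were not called (median log2 fold change -0.23). Of the 6 kidney genes 2 were tested and 1 was called higher. Erythroid genes had lower sums (34.6 to 201 against 396 to 690), and those of adrenal cortex overlapped (15.6 to 131 against 72.5 to 85.7). In the other populations the highest sums went with the labels. Endothelial genes reached 9460 to 10102 CPM in CD31+ cells and erythroid genes 2072 to 2173 CPM in Kit+CD24+ cells. Endothelial genes also summed to 82.5, 423, and 129 CPM in Kit+CD24+ replicates 1, 2, and 3. Erythroid genes summed to 319, 432, and 420 CPM in CD31+ replicates 1, 2, and 3. The part of other cells in the age differences was not tested, and age results are therefore given from all libraries and also without E18.5 replicate 1. That library was set apart because of its own levels, and the fit without it rests on E18.5 replicates 2 and 3 only. Its SEs and p values therefore leave out the spread seen among the E18.5 libraries.

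The CD54+CD31- cells held most of the P450 expression. A mean of at least 1 CPM was reached by 26 members in E14.5 CD54+CD31- cells, 44 in E18.5 CD54+CD31- cells, 18 in CD31+ cells, and 6 in Kit+CD24+ cells, and by 49 in any group. Among these 49 genes the highest mean was at E18.5 for 30, in E14.5 CD54+CD31- cells for 10, in CD31+ cells for 7, and in Kit+CD24+ cells for 2. Only 1 member, *Cyp2a22*, had 0 counts in all 12 libraries. All members together summed to 717, 746, and 755 CPM in the E14.5 CD54+CD31- libraries and to 270, 886, and 1091 CPM in E18.5 replicates 1, 2, and 3. The sums were 134, 123, and 124 CPM in CD31+ cells and 51.8, 47.8, and 53.6 CPM in Kit+CD24+ cells. E18.5 replicate 1 thus lay below both E18.5 libraries and below every E14.5 CD54+CD31- library, while the other populations varied little between replicates.

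**Figure D1:**
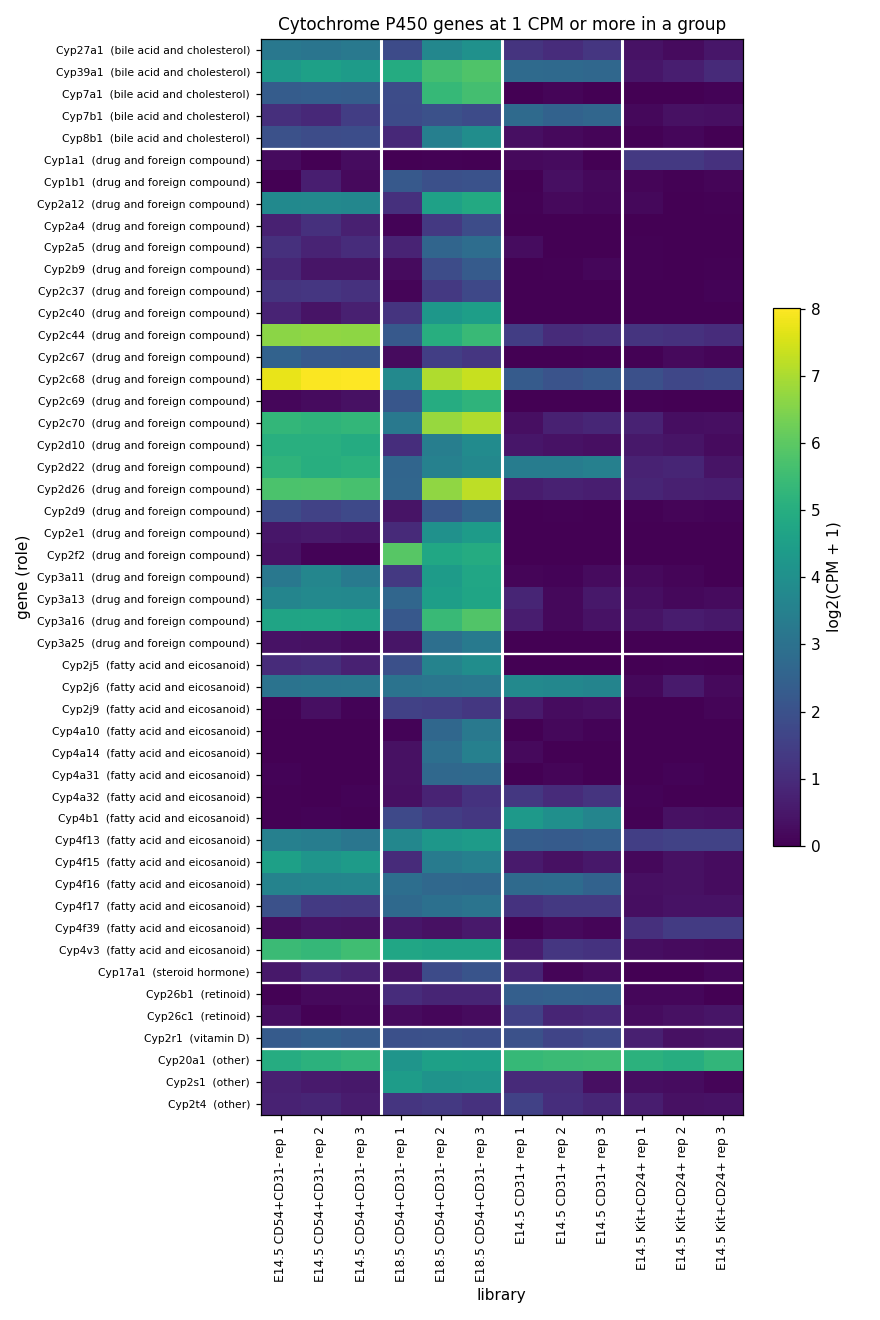
Levels of the 49 cytochrome P450 genes with a mean of at least 1 CPM in a group, as log2(CPM + 1) (color), in each of the 12 libraries (columns), with genes (rows) ordered by role. The CD54+CD31- columns hold most of the high values, *Cyp20a1* lies between 17.3 and 44.3 CPM in every column, and E18.5 replicate 1 is lower than replicates 2 and 3 in most rows.

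Per kilobase of exon, the scale on which genes can be compared with each other, *Cyp2c68* had the highest mean at both ages, with 138 CPM per kb at E14.5 and 58.9 at E18.5. At E18.5 it ranked first in replicates 2 and 3, with 76.2 and 93.1 CPM per kb, whereas in replicate 1 it had 7.41 CPM per kb and *Cyp2f2* was first with 29.3, followed by *Cyp39a1* (9.62) and *Cyp20a1* (7.55). At E14.5 it was followed by *Cyp2c44* (45.8 CPM per kb), *Cyp2d26* (29.2), *Cyp2c70* (19.0), *Cyp2d10* (18.9), *Cyp20a1* (14.8), *Cyp3a16* (14.0), *Cyp4v3* (11.2), *Cyp4f15* (8.73), and *Cyp2d22* (8.65). By E18.5 means, it was followed by *Cyp2d26* (47.3 CPM per kb), *Cyp2c70* (41.8), *Cyp3a16* (19.6), *Cyp2f2* (19.0), *Cyp39a1* (14.4), *Cyp2c69* (13.6), *Cyp2c44* (11.97), *Cyp20a1* (9.01), and *Cyp7a1* (7.31). With E18.5 replicate 1 so far from the others, most neighbors in the E18.5 order do not differ beyond their spread. The Cyp2c genes are 15 members on chromosome 19 whose products oxidize drugs and arachidonic acid. They made up 51.6% of the mean summed CPM of all members at E14.5 and 33.3% at E18.5. The E18.5 share differed between libraries. Cyp2c genes summed to 30.0, 322, and 397 CPM in replicates 1, 2, and 3, of 270, 886, and 1091 CPM for all members.

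Promoter sequence had not been used in the choice of members, but the letters given here were chosen after their values were seen. RefSeq promoters of 300 bases, from 250 before to 50 after the start site (GRCm38.p6), were found for 72 members, with 82 promoters. The letters CAAAGTCCA, a core of the binding sequence of HNF4, the nuclear receptor of hepatocytes, occurred on either strand in 9 of these 82 promoters (10.98%) and in 156 of all 32851 promoters (0.475%). Of the 26 promoters of members called higher in E14.5 CD54+CD31- cells than in both other E14.5 populations, 7 (26.9%) held it. *Cyp2c40*, among these, had 0 counts in both other populations and could only be called higher. The share was not taken over all genes with the same calls, so it does not set the members apart. The members with the letters were *Cyp2c40*, *Cyp2c65*, *Cyp2c67*, *Cyp2c68*, *Cyp2c69*, *Cyp2c70*, *Cyp3a11*, *Cyp3a16*, and *Cyp8b1*. Their mean levels at E14.5 in CD54+CD31- cells ranged from 0.0283 CPM in *Cyp2c65* to 239 CPM in *Cyp2c68*. The match was always on the strand of the gene, between 45 and 125 bases before the annotated start site. The TATA box letters TATAAA were found in 39.0% of member promoters and 13.6% of all promoters, TTGCNNAA (C/EBP) in 25.6% and 10.8%, and AGGTCA (nuclear receptors) in 26.8% and 16.3%. The median number of CG dinucleotides per promoter was 2.5 in members and 7 over all promoters. Members of a gene cluster share ancestry, so these counts are not of independent sequences. The stretches around CAAAGTCCA (in capitals) follow for 7 members, since they let the Cyp2c copies be set against *Cyp2c70*, the Cyp3a genes, and *Cyp8b1*.
Cyp2c65 (chr19:39060865-39060923, plus strand): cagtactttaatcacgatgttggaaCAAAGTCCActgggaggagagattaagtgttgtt
Cyp2c68 (chr19:39741145-39741203, minus strand): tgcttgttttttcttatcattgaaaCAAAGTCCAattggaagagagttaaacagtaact
Cyp2c69 (chr19:39886811-39886869, minus strand): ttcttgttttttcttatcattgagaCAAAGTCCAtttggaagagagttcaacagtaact
Cyp2c70 (chr19:40187317-40187375, minus strand): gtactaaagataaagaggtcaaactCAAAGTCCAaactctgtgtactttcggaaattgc
Cyp3a11 (chr5:145879930-145879988, minus strand): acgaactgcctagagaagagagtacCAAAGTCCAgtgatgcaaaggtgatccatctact
Cyp3a16 (chr5:145469789-145469847, minus strand): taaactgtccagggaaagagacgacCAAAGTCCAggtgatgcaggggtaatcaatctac
Cyp8b1 (chr9:121916339-121916397, minus strand): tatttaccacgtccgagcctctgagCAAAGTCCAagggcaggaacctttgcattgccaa
The stretch of *Cyp2c69* has the same base as that of *Cyp2c68* at 55 of 59 positions, and that of *Cyp2c70* at 18. In CD54+CD31- cells, *Cyp2c68* had 212, 247, and 257 CPM at E14.5 and *Cyp2c69* only 0.113, 0.189, and 0.271 CPM. A match describes these letters only and does not show a bound site.

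Between E14.5 and E18.5, more P450 genes were called higher than lower in CD54+CD31- cells. Of 55 members that passed the low count filter, 23 were higher at E18.5, 5 were lower, and 27 were not called. Over all 15863 genes tested, 69.4% were called, 35.9% higher and 33.5% lower, against 41.8% and 9.09% of the tested members. The median log2 fold change was 0.98 over these members and 0.03 over all genes. Without E18.5 replicate 1, 37 members were called higher, among them all 23, and 10 lower, among them all 5, while 36.8% of all genes were higher and 35.9% lower. Of the 55 tested members, 21 were higher and 13 lower at E18.5 without overlap between libraries of the ages. Over all genes tested, these shares were 34.8% and 43.0%. A called log2 fold change above 2 was reached by 17 of the 55 members and 18.1% of all genes. One above 4 was reached by 12 of the 55 members and 7.43% of all genes. Members with few or no counts in these cells at E14.5, such as *Cyp4a14* and *Cyp4a31*, passed the low count filter only through E18.5 libraries. Such genes, among the members and among all genes, could only be called as rises.

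**Figure D2:**
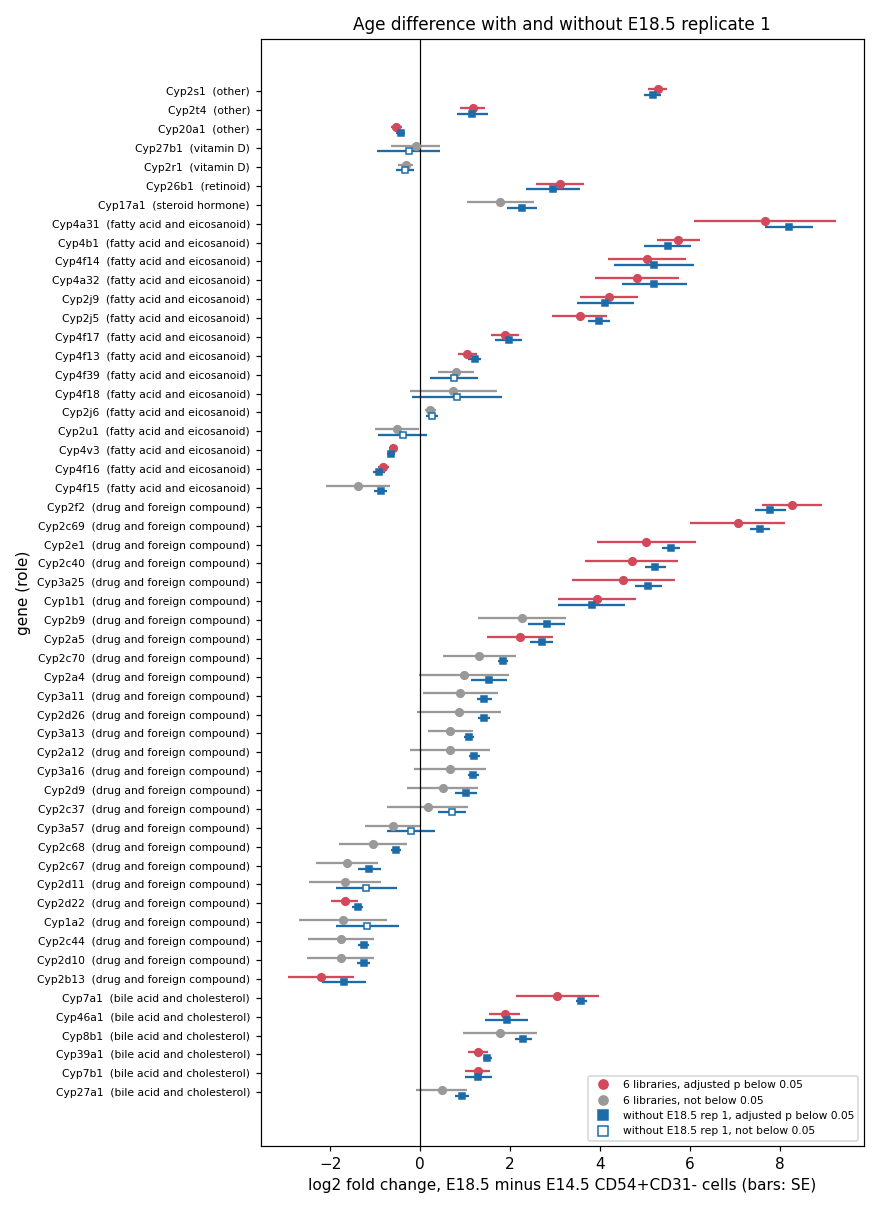
Log2 fold change of each tested member between E18.5 and E14.5 CD54+CD31- cells, with its SE, from all 6 libraries (circles) and without E18.5 replicate 1 (squares). *Cyp4a14*, at 0 counts in every E14.5 CD54+CD31- library, is left out. The SE is smaller without replicate 1 for many drug and bile acid genes, and 37 members instead of 23 are called higher; *Cyp4a10* and *Cyp3a44* were tested only without it and are not drawn.

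In the bile acid and cholesterol group, 4 of 6 members were called higher at E18.5, and all 6 had a positive log2 fold change. *Cyp7a1*, the rate-limiting enzyme of classical bile acid synthesis (chr4:6265612-6275633, minus strand, GRCm38), had 4.07, 4.28, and 4.15 CPM at E14.5 and 2.63, 40.6, and 48.3 CPM at E18.5. Replicate 1 of E18.5 lay below the E14.5 libraries and the others about 10-fold above them. The log2 fold change was 3.05 ± 0.92 (SE, adjusted p = 0.0226). Leaving out any E14.5 library, or E18.5 replicate 2 or 3, ended this call (adjusted p from 0.0574 to 0.0776), and without E18.5 replicate 1 the log2 fold change was 3.58 ± 0.12 (adjusted p = 5.46e-08). In the fit that blocks on the replicate number it was 2.43 (adjusted p = 0.1).

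*Cyp8b1*, which sets the proportion of cholic acid, had 2.94, 2.61, and 2.74 CPM at E14.5 and 0.898, 10.1, and 14.2 CPM at E18.5. It was not called (log2 fold change 1.77 ± 0.83, adjusted p = 0.0970), but was without replicate 1 (2.30 ± 0.19, adjusted p = 7.99e-06) and in DESeq2 (adjusted p = 0.0260). *Cyp27a1*, a mitochondrial sterol 27-hydroxylase, had 8.29, 7.74, and 8.51 CPM at E14.5 and 2.55, 12.1, and 15.7 CPM at E18.5. Its log2 fold change was 0.48 ± 0.57 (adjusted p = 0.477), and 0.93 ± 0.15 without replicate 1 (adjusted p = 0.000457). In all these genes, E18.5 replicate 1 was the lowest of the 6 libraries.

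*Cyp39a1*, an oxysterol 7-alpha-hydroxylase, was higher in each E18.5 library than in any E14.5 library, with 29.4, 47.6, and 55.3 CPM against 19.2, 22.5, and 19.96 (log2 fold change 1.28 ± 0.22, adjusted p = 0.00199). *Cyp7b1*, which acts on oxysterols in the alternative bile acid pathway, rose from 1.13, 0.913, and 1.73 CPM to 2.57, 2.95, and 2.58 CPM (log2 fold change 1.28 ± 0.28, adjusted p = 0.00593). *Cyp46a1*, the cholesterol 24-hydroxylase known from neurons, rose from a mean of 0.188 CPM to 0.611 CPM (adjusted p = 0.00254). In *Cyp7b1* and *Cyp46a1*, replicate 1 of E18.5 lay close to the others. Without replicate 1 all 6 bile acid genes were called higher, with log2 fold changes of 1.49 for *Cyp39a1*, 1.29 for *Cyp7b1*, and 1.93 for *Cyp46a1*.

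Among the drug and foreign compound genes, 26 of 45 members were tested, of which 7 were higher, 2 were lower, and 17 were not called. Without E18.5 replicate 1, 17 of 27 tested were higher and 6 lower. The genes that were already abundant at E14.5 went in different directions. *Cyp2c68* (chr19:39688834-39741054, minus strand) had 212, 247, and 257 CPM at E14.5 and 12.8, 131, and 161 CPM at E18.5 (log2 fold change -1.06 ± 0.76, adjusted p = 0.252). *Cyp2c44* had 97.9, 100.5, and 98.5 CPM at E14.5 and 3.71, 31.8, and 42.0 CPM at E18.5 (log2 fold change -1.76 ± 0.73, adjusted p = 0.0681). Neither gene overlapped between the ages, and without replicate 1 both were called lower, *Cyp2c68* with a log2 fold change of -0.54 ± 0.11 (adjusted p = 0.00237) and *Cyp2c44* with -1.26 ± 0.12 (adjusted p = 2.08e-05). *Cyp2d10* followed the same course, with 32.5, 31.9, and 29.2 CPM at E14.5 and 1.05, 9.81, and 13.4 CPM at E18.5 (adjusted p = 0.0715, and 8.33e-05 without replicate 1).

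In contrast, *Cyp2c70*, which makes the muricholic acids typical of mice, had 38.2, 35.6, and 38.8 CPM at E14.5 and 8.53, 107, and 133 CPM at E18.5. *Cyp2d26* had 52.8, 53.7, and 50.8 CPM at E14.5 and 5.25, 103, and 146 CPM at E18.5. *Cyp3a16*, known as a fetal and neonatal Cyp3a gene, had 24.4, 25.1, and 23.5 CPM at E14.5 and 3.59, 41.9, and 56.3 CPM at E18.5. In each, replicates 2 and 3 lay above and replicate 1 below all E14.5 CD54+CD31- libraries, and none was called (adjusted p = 0.190 for *Cyp2c70*, 0.433 for *Cyp2d26*, and 0.490 for *Cyp3a16*). Without replicate 1 all of them were called higher, with log2 fold changes of 1.84 ± 0.10 for *Cyp2c70*, 1.41 ± 0.14 for *Cyp2d26*, and 1.18 ± 0.13 for *Cyp3a16*. The only member of the Cyp3a subfamily called with all libraries was *Cyp3a25*, of 5 tested, which rose from 0.311, 0.283, and 0.173 CPM to 0.356, 6.53, and 8.72 CPM (adjusted p = 0.0106, and 1.12e-06 without replicate 1).

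Several genes that were close to 0 at E14.5 were clearly present at E18.5. *Cyp2c69* had 0.113, 0.189, and 0.271 CPM at E14.5 and 3.37, 29.9, and 36.3 CPM at E18.5 (log2 fold change 7.06 ± 1.06, adjusted p = 0.00106). *Cyp2e1*, the ethanol-inducible enzyme of adult liver, had 0.396, 0.472, and 0.395 CPM at E14.5 and 0.944, 15.7, and 19.9 CPM at E18.5 (log2 fold change 5.03 ± 1.10, adjusted p = 0.00588). *Cyp2c40* rose from 0.736, 0.346, and 0.642 CPM to 1.32, 17.7, and 21.3 CPM (log2 fold change 4.70 ± 1.03, adjusted p = 0.00586). For these genes even E18.5 replicate 1 lay above every E14.5 library, and without it the log2 fold changes were 7.56 for *Cyp2c69*, 5.57 for *Cyp2e1*, and 5.23 for *Cyp2c40*, all called. *Cyp2a5*, a coumarin hydroxylase, was also called higher (log2 fold change 2.22 ± 0.73, adjusted p = 0.0310), although its replicate 1 value of 0.743 CPM fell below the E14.5 range of 0.755 to 1.16 CPM, and the block ended the call (adjusted p = 0.110). Of 4 Cyp2a members 3 were tested, and of 5 Cyp2b members 2.

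*Cyp2f2* had another order of the E18.5 libraries. This gene, known for its abundance in club cells of the airway (chr7:27119909-27133660, plus strand, overlapping *Gm15883* on the other strand), had 0.311, 0.0629, and 0.0493 CPM at E14.5 and 59.4, 26.2, and 29.7 CPM at E18.5 (log2 fold change 8.27 ± 0.67, adjusted p = 7.60e-05). It was highest in replicate 1, the library with the highest sum of lung genes and the lowest sum of hepatocyte genes. *Cyp2s1*, an epithelial P450 gene, had the same order, with 0.622, 0.504, and 0.444 CPM at E14.5 and 20.5, 16.3, and 17.2 CPM at E18.5 (log2 fold change 5.29 ± 0.21, adjusted p = 1.42e-05). *Cyp1b1*, which is known from mesenchymal and endothelial cells, rose from 0, 0.598, and 0.148 CPM to 3.70, 2.91, and 3.07 CPM (log2 fold change 3.93 ± 0.86, adjusted p = 0.00581). Without replicate 1 the log2 fold changes were 7.79 for *Cyp2f2*, 5.17 for *Cyp2s1*, and 3.81 for *Cyp1b1*, all called. The share of the lung or mesenchymal cells in these values was not tested.

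The called falls spanned log2 fold changes from -0.53 to -2.20. *Cyp2d22* fell from 36.1, 31.8, and 33.6 CPM to 5.11, 10.6, and 12.3 CPM (log2 fold change -1.68 ± 0.30, adjusted p = 0.00247). *Cyp2b13* fell from 1.10, 0.598, and 0.938 CPM to 0.0155, 0.246, and 0.235 CPM (log2 fold change -2.20 ± 0.74, adjusted p = 0.0332), a call that was lost on leaving out any single library other than E18.5 replicate 1 (adjusted p from 0.0502 to 0.0917). Its adjusted p in the blocked fit was 0.0803. Without replicate 1, the log2 fold change was -1.39 for *Cyp2d22* and -1.70 for *Cyp2b13*, both called.

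Among the fatty acid and eicosanoid genes, 16 of 26 members were tested, 9 were higher, and 2 were lower at E18.5. Without E18.5 replicate 1, 10 of 17 tested were higher and 3 lower. The Cyp4a genes encode omega-hydroxylases of fatty acids and are classical targets of PPAR-alpha. *Cyp4a14* had 0 counts in all E14.5 CD54+CD31- libraries and 0.294, 6.64, and 10.2 CPM at E18.5. The E18.5 mean was at least 67.8-fold higher when 3 counts per library are taken as the floor (0.0844 CPM at E14.5). Replicate 1 alone lay much closer to that floor. *Cyp4a10* had 0 counts in the same E14.5 libraries and 0.0464, 5.39, and 8.40 CPM at E18.5. Its E18.5 mean was at least 54.7-fold higher by the same floor, although replicate 1 lay below that floor. *Cyp4a10* passed the filter only without replicate 1 (adjusted p = 7.99e-06). *Cyp4a31* had 2 counts over all E14.5 CD54+CD31- libraries and 852 at E18.5, a ratio of 214 (95% interval 59.1 to 1771, counting error only). For *Cyp4a32* the ratio was 27.3 (9.18 to 134), from 3 and 163 counts. All 3 tested Cyp4a genes were called higher, and in each replicate 1 was the lowest E18.5 library.

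*Cyp4b1*, known from lung, behaved like *Cyp2f2* at a lower level, with 0.0283, 0.0629, and 0.0247 CPM at E14.5 and 2.40, 1.75, and 1.47 CPM at E18.5 (log2 fold change 5.74 ± 0.48, adjusted p = 8.28e-05). *Cyp4f14*, a leukotriene B4 hydroxylase, had 2 counts in E14.5 CD54+CD31- cells and 134 at E18.5, a ratio of 33.7 (9.14 to 281). *Cyp2j5*, an arachidonic acid epoxygenase, rose from 0.962, 1.10, and 0.666 CPM to 2.91, 10.996, and 14.3 CPM (log2 fold change 3.55 ± 0.61, adjusted p = 0.00198). *Cyp4v3* fell from 43.3, 39.2, and 45.6 CPM to 25.8, 24.3, and 24.2 CPM (log2 fold change -0.60 ± 0.10, adjusted p = 0.00136), and *Cyp4f16* from 11.1, 11.6, and 11.9 CPM to 6.36, 5.47, and 5.39 CPM (-0.82 ± 0.13, adjusted p = 0.00141). In both, replicate 1 was the highest E18.5 library. Without it the log2 fold changes were 5.501 for *Cyp4b1*, 3.98 for *Cyp2j5*, -0.65 for *Cyp4v3*, and -0.92 for *Cyp4f16*, all called. *Cyp4f15* had 22.6, 17.2, and 19.99 CPM at E14.5 and 0.990, 9.12, and 10.2 CPM at E18.5, and was called only without replicate 1 (log2 fold change -0.88 ± 0.15, adjusted p = 0.000737).

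The genes of steroid, retinoid, and vitamin D metabolism stayed low in CD54+CD31- cells. *Cyp17a1*, a 17-alpha-hydroxylase of steroid synthesis, had 0.424, 0.881, and 0.716 CPM at E14.5 and 0.371, 2.55, and 3.20 CPM at E18.5, and passed the test only without replicate 1 (adjusted p = 0.000313), in DESeq2 (adjusted p = 0.0223), and with the authors' factors (adjusted p = 0.0445). *Cyp11a1*, *Cyp11b1*, *Cyp11b2*, *Cyp19a1*, and *Cyp21a1* did not exceed 0.198 CPM in any CD54+CD31- library and were not tested for age. The retinoic acid hydroxylase gene *Cyp26b1* rose from 0.0283, 0.157, and 0.148 CPM to 1.01, 0.776, and 0.789 CPM (log2 fold change 3.11 ± 0.53, adjusted p = 0.00181). *Cyp2r1*, the vitamin D 25-hydroxylase, had 3.90, 4.53, and 3.87 CPM at E14.5 and 2.86, 2.95, and 2.82 CPM at E18.5 (log2 fold change -0.32 ± 0.16, adjusted p = 0.117). Without replicate 1, *Cyp26b1* stayed called (log2 fold change 2.96) and *Cyp2r1* uncalled (-0.34). *Cyp27b1*, its renal partner enzyme, was at or below 0.315 CPM and *Cyp24a1* at or below 0.0566 CPM in all these libraries.

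Of the remaining members, *Cyp20a1*, whose substrate is unknown, fell from 30.2, 34.1, and 37.3 CPM to 17.3, 22.4, and 22.1 CPM (log2 fold change -0.53 ± 0.13, adjusted p = 0.00798; 0.0612 with the authors' factors). *Cyp2t4* rose by 1.17 ± 0.28 on the log2 scale (adjusted p = 0.00847). Both calls held without replicate 1, at log2 fold changes of -0.44 for *Cyp20a1* and 1.16 for *Cyp2t4*.

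The place of E18.5 replicate 1 among the E18.5 libraries differed between members, and was not counted over all genes. Of the 44 members at 1 CPM or more at E18.5, replicate 1 was the lowest of the E18.5 libraries in 35, with a median ratio of 0.0875 to the mean of replicates 2 and 3. It was in the middle for *Cyp2t4* and *Cyp2r1* and the highest for 7, namely *Cyp4v3*, *Cyp2j9*, *Cyp4f16*, *Cyp2s1*, *Cyp1b1*, *Cyp4b1*, and *Cyp2f2*, with ratios from 1.06 in *Cyp4v3* to 2.13 in *Cyp2f2*.

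**Figure D3:**
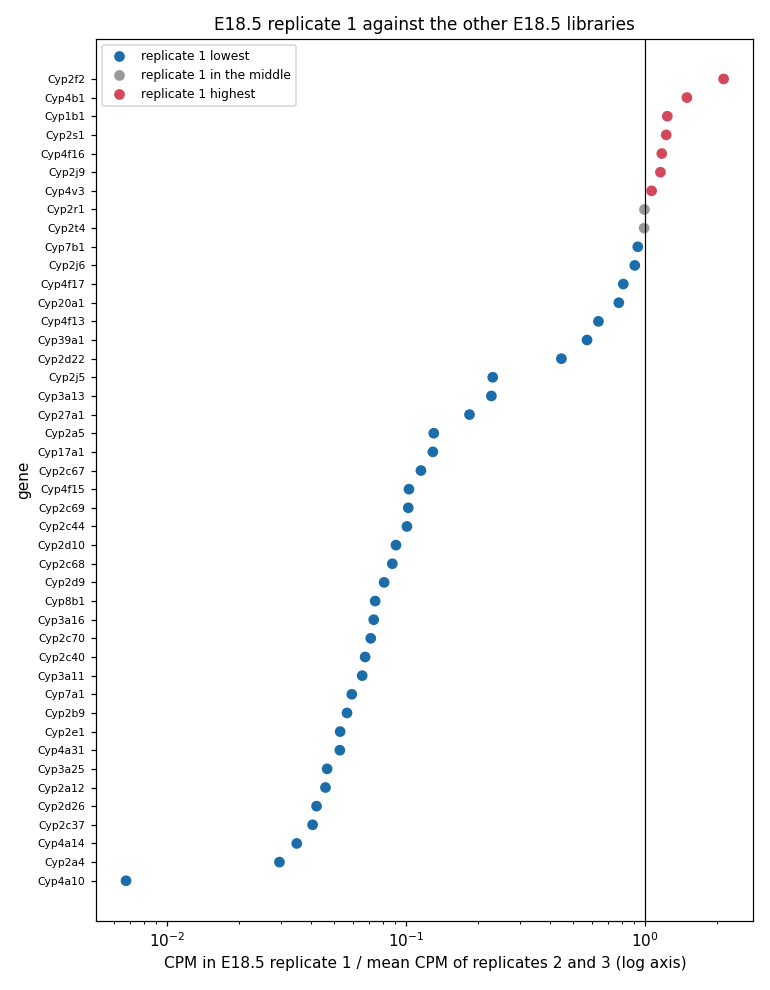
Ratio of the CPM in E18.5 replicate 1 to the mean CPM of E18.5 replicates 2 and 3 (log axis) for the 44 members at 1 CPM or more at E18.5. Replicate 1 was lowest in 35 genes, with a lowest ratio of 0.00673 in *Cyp4a10*, and highest in 7, led by *Cyp2f2*. Its place was not counted over all genes.

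Dividing each level by the summed CPM of the 20 hepatoblast and hepatocyte genes in the same library, a measure added after the values were seen, brought the E18.5 libraries together for many genes. *Cyp3a16* had 0.268, 0.244, and 0.224 CPM per 1000 CPM of the list at E14.5 and 0.753, 0.771, and 0.785 at E18.5. *Cyp2c70* had 0.420, 0.347, and 0.371 at E14.5 and 1.79, 1.98, and 1.85 at E18.5 on this scale. For *Cyp7a1* the values were 0.0448, 0.0416, and 0.0396 at E14.5 and 0.552, 0.747, and 0.674 at E18.5. In these genes the E18.5 libraries no longer overlapped E14.5, replicate 1 included.

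*Cyp2c68* had 2.33, 2.40, and 2.45 on this scale at E14.5 and 2.68, 2.42, and 2.24 at E18.5, and the ages overlapped. *Cyp2c44* had 1.08, 0.977, and 0.941 at E14.5 and 0.779, 0.584, and 0.586 at E18.5, and *Cyp2d10* was the other gene that stayed lower in every library. In all, 44 members reached 1 CPM in a CD54+CD31- group, and on this scale 34 of them were higher in every E18.5 library, 2 were lower, and 8 overlapped. Of all 13849 genes that reached 1 CPM in either group, 52.9% were higher and 1.83% lower in every E18.5 library on the same scale. For 28 of the 44, the E18.5 libraries lay closer together, as the ratio of the highest to the lowest, than in CPM. This was not counted over all genes, so it does not set the members apart. *Cyp2f2* (12.5, 0.481, and 0.415 at E18.5), *Cyp2s1* (4.30, 0.300, and 0.240), and *Cyp20a1* (3.62, 0.412, and 0.309) moved farther apart.

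**Figure D4:**
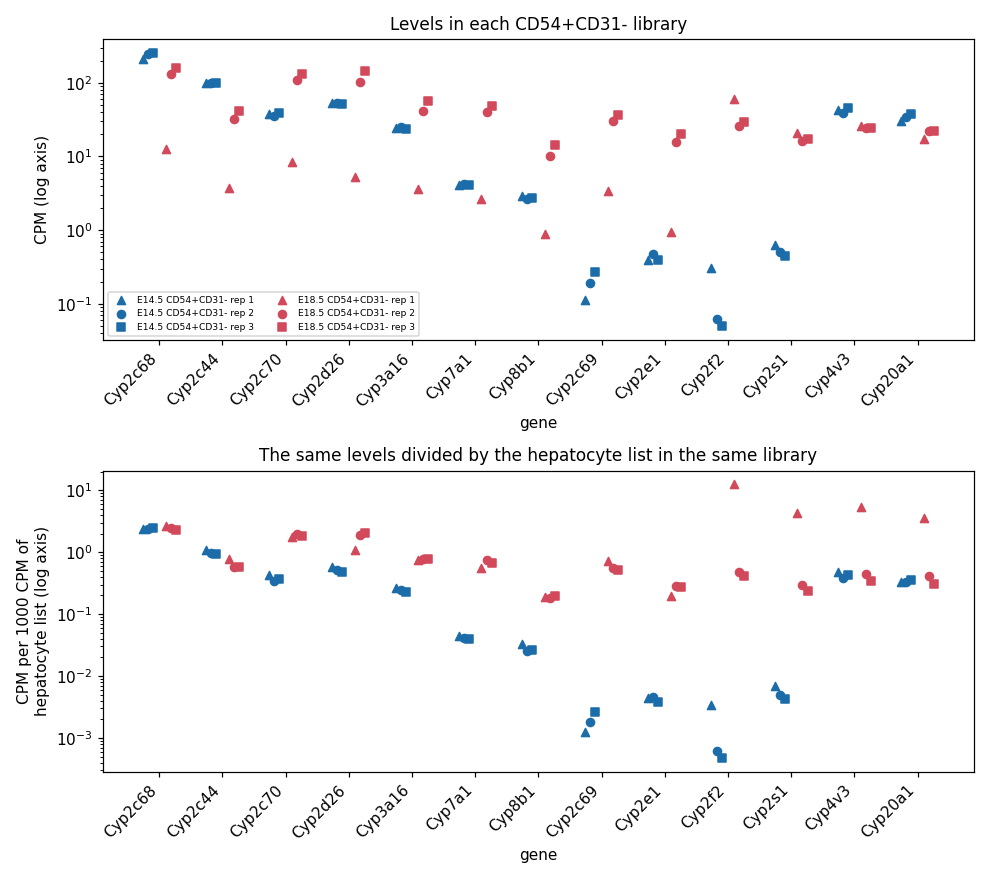
Levels of 13 members in each CD54+CD31- library, as CPM (upper panel) and as CPM per 1000 CPM of the hepatocyte list (lower panel), both on log axes. In the lower panel the E18.5 replicates of *Cyp3a16*, *Cyp2c70*, and *Cyp8b1* lie together above E14.5, whereas replicate 1 (triangles) stands above the others for *Cyp2f2*, *Cyp2s1*, *Cyp4v3*, and *Cyp20a1*.

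The hepatocyte list is not a neutral standard, as *Alb* and *Afp* gave between 54.1% and 61.9% of its sum and the list itself changed with age. When libraries were scaled to it in edgeR, the log2 fold changes had a median of 2.80 over all genes instead of 0.03, while the median of the members from 0.98 to 2.96. On this scale 20 members were called higher and 0 lower, against 30.4% and 0.12% of all genes, and *Cyp2a5*, *Cyp39a1*, and *Cyp4f13* were no longer called. Members with a negative log2 fold change numbered 7 on this scale, 0 of them with an unadjusted p below 0.05. On this scale *Cyp4v3*, *Cyp4f16*, *Cyp20a1*, and *Cyp2d22*, called lower with TMM, had positive log2 fold changes below the median of all genes (2.26, 2.11, 2.09, and 0.48) and were not called.

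Within E14.5, the P450 genes separated CD54+CD31- cells from the other populations. Against Kit+CD24+ cells, 36 of 48 tested members were higher in CD54+CD31- cells, 3 were lower, and 9 were not called, where 70.0% of all genes were called, 36.1% higher and 33.8% lower. Against CD31+ cells, 31 of 48 were higher, 8 were lower, and 9 were not called, where 65.6% of all genes were called, 34.0% higher and 31.7% lower. A called log2 fold change above 4 was reached by 30 of 48 tested members against Kit+CD24+ cells and 21 of 48 against CD31+ cells. Over all genes, 9.79% and 4.96% reached it. The median log2 fold change of the tested members was 4.91 against Kit+CD24+ cells and 3.02 against CD31+ cells (4.78 and 2.88 with genes at 0 counts in a group set to their bound), and 0.01 and 0.03 over all genes. Both comparisons and the age comparison use the same E14.5 CD54+CD31- libraries. Members at 0 counts in both other populations, such as *Cyp2a4*, passed the low count filter only through CD54+CD31- cells. They could only be called higher there.

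By role, 20 of the 21 tested drug and foreign compound genes were higher in CD54+CD31- cells in each comparison. *Cyp2c68* had 3.97, 3.10, and 3.63 CPM in CD31+ cells and 2.92, 2.23, and 2.45 CPM in Kit+CD24+ cells, against 212 to 257 CPM in CD54+CD31- cells (log2 fold change 6.07 ± 0.15 and 6.58 ± 0.16). *Cyp2d26* was between 0.539 and 0.659 CPM in CD31+ cells and between 0.578 and 0.758 CPM in Kit+CD24+ cells, against 50.8 to 53.7 CPM. The hepatocyte list itself summed to between 1094 and 1258 CPM in CD31+ cells and between 872 and 892 CPM in Kit+CD24+ cells. The part of RNA from hepatoblasts in the low P450 values of these populations was not tested.

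*Cyp2a4* and *Cyp2c40* had 0 counts in every CD31+ and Kit+CD24+ library. With 3 counts per library as the floor, *Cyp2a4* was at least 13.0-fold higher in CD54+CD31- than in Kit+CD24+ cells and at least 15.9-fold higher than in CD31+ cells. *Cyp2c40* was at least 9.11-fold and 11.1-fold higher, respectively, and *Cyp2c37*, at 0 counts in CD31+ cells, at least 25.4-fold higher than there. *Cyp2j5*, also at 0 counts in CD31+ cells, was at least 17.6-fold higher. *Cyp4v3* had 0.230, 0.166, and 0.154 CPM in Kit+CD24+ cells and 0.557, 1.41, and 1.24 CPM in CD31+ cells (log2 fold change 7.88 ± 0.34 and 5.32 ± 0.27 in favor of CD54+CD31- cells). All 5 tested bile acid genes were higher than in Kit+CD24+ cells, among them *Cyp7a1*, with 448 counts over the CD54+CD31- libraries and 3 over the Kit+CD24+ libraries, a ratio of 199 (67.7 to 969).

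**Figure D5:**
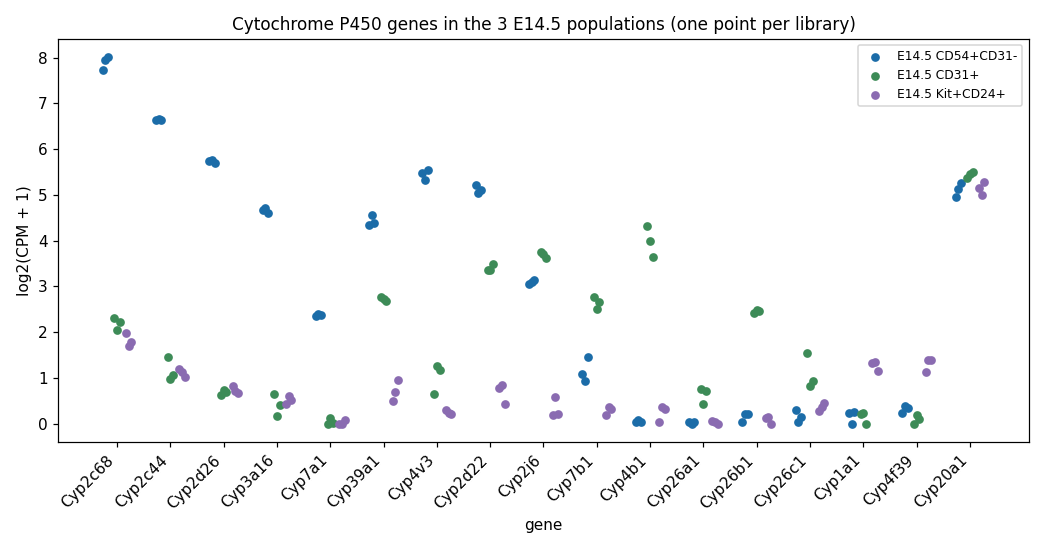
Levels of 17 members, as log2(CPM + 1), in each library of the 3 E14.5 populations. CD54+CD31- cells hold the high values of the hepatic genes, CD31+ cells those of *Cyp4b1*, *Cyp7b1*, and the Cyp26 genes, Kit+CD24+ cells those of *Cyp1a1* and *Cyp4f39*, and *Cyp20a1* lies between 30.2 and 44.3 CPM in every library.

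A small set of P450 genes was higher in CD31+ cells. All 3 Cyp26 genes, whose products clear retinoic acid, were called higher there than in both other E14.5 populations. *Cyp26b1* (chr6:84571414-84593908, minus strand) had 4.35, 4.61, and 4.53 CPM in CD31+ cells, at most 0.157 CPM in CD54+CD31- cells, and at most 0.104 CPM in Kit+CD24+ cells (log2 fold change of CD54+CD31- against CD31+ cells -5.30 ± 0.59, adjusted p = 2.00e-05). *Cyp26c1* had 1.90, 0.766, and 0.903 CPM in CD31+ cells, and *Cyp26a1* had 0.700, 0.338, and 0.634 CPM. For *Cyp26a1* this was 98 counts against 2 in CD54+CD31- cells, a ratio of 30.2 (8.13 to 253).

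*Cyp4b1* had 19.0, 14.8, and 11.6 CPM in CD31+ cells and was 377-fold lower in CD54+CD31- cells (log2 fold change -8.56 ± 0.59, adjusted p = 5.14e-07). *Cyp7b1* had 5.78, 4.70, and 5.28 CPM in CD31+ cells, against 0.913 to 1.73 CPM in CD54+CD31- cells (log2 fold change -2.05 ± 0.30, adjusted p = 0.000151). *Cyp4a32*, with 219 counts in CD31+ cells against 3 in CD54+CD31- cells, had a ratio of 44.9 (15.2 to 220), although its paralogs *Cyp4a10*, *Cyp4a14*, and *Cyp4a31* did not exceed 0.144 CPM in CD31+ cells. *Cyp2j6* had 12.5, 12.01, and 11.4 CPM in CD31+ cells and 7.33, 7.59, and 7.87 CPM in CD54+CD31- cells, without overlap and not called (adjusted p = 0.0515). It had only 0.138, 0.499, and 0.154 CPM in Kit+CD24+ cells. *Cyp2d22*, an abundant gene of CD54+CD31- cells, was also present in CD31+ cells, with 9.28, 9.28, and 10.2 CPM.

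Per kilobase of exon, the highest members in CD31+ cells were *Cyp20a1* (18.6 CPM per kb), *Cyp4b1* (6.70), *Cyp2j6* (3.32), *Cyp2d22* (2.46), and *Cyp7b1* (2.43). In Kit+CD24+ cells they were *Cyp20a1* (15.1 CPM per kb), *Cyp2c68* (1.47), *Cyp2c44* (0.539), *Cyp4f39* (0.517), and *Cyp1a1* (0.511). Among the steroid genes, *Cyp11a1*, the side chain cleavage enzyme, had 0.359, 0.178, and 0.650 CPM in CD31+ cells and at most 0.0963 CPM in the other E14.5 libraries.

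In Kit+CD24+ cells *Cyp20a1* alone gave 67.4% of the summed CPM of the members. It had 34.5, 31.1, and 37.7 CPM there, 40.5, 42.9, and 44.3 CPM in CD31+ cells, and 30.2 to 37.3 CPM in CD54+CD31- cells. The difference between CD31+ and CD54+CD31- cells was called (log2 fold change -0.32 ± 0.10, adjusted p = 0.0186), but not on leaving out replicate 1 or 2 of CD54+CD31- cells or replicate 2 or 3 of CD31+ cells (adjusted p from 0.103 to 0.141). *Cyp1a1*, the aryl hydrocarbon receptor target, had 1.52, 1.54, and 1.21 CPM in Kit+CD24+ cells and at most 0.197 CPM in CD54+CD31- cells (log2 fold change -3.44 ± 0.91, adjusted p = 0.00625). *Cyp4f39*, which hydroxylates very long fatty acids for the skin barrier, had 1.17, 1.62, and 1.64 CPM in Kit+CD24+ cells and at most 0.315 CPM in CD54+CD31- cells (log2 fold change -2.53 ± 0.63, adjusted p = 0.00468). Between CD31+ and Kit+CD24+ cells, 26 of 48 tested members were called higher in CD31+ cells and 3 lower, where 73.7% of all genes were called, 39.4% higher and 34.3% lower. With CD31+ cells higher, libraries did not overlap for 22 of the 48 tested members, against 40.2% of all genes. A called log2 fold change above 4 was reached by 7 of the 48 members and 9.29% of all genes. Of the fatty acid and eicosanoid genes 11 of 14 were higher in CD31+ cells, and of the drug and foreign compound genes 3 of 21.

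The partners of the P450 enzymes were examined as a separate list. Of the electron donors and carriers, 7 of 9 were tested, and all 7 were higher in E14.5 CD54+CD31- cells than in either other E14.5 population. Over all genes, 36.1% were higher than in Kit+CD24+ cells and 34.0% higher than in CD31+ cells. With age 1 of the 7 rose and 4 fell, and without E18.5 replicate 1, 2 rose and 4 fell. Over all genes, 35.9% rose and 33.5% fell with age, and 36.8% and 35.9% without that library. *Por*, the oxidoreductase that feeds microsomal P450 enzymes, had 199.8, 200.4, and 199 CPM at E14.5 and 148, 193, and 226 CPM at E18.5 (log2 fold change 0.10 ± 0.15, adjusted p = 0.576), and was called higher without replicate 1 (0.24 ± 0.09, adjusted p = 0.0461). *Fdx1*, the mitochondrial ferredoxin, rose from 13.1, 19.1, and 13.3 CPM to 24.2, 27.4, and 28.9 CPM (adjusted p = 0.00157), while its reductase *Fdxr* fell from 60.4, 63.6, and 55.7 CPM to 2.97, 4.81, and 5.84 CPM (log2 fold change -3.54 ± 0.25, adjusted p = 4.62e-05). *Cyb5a*, *Cyb5r3*, and *Pgrmc1* were the other genes that fell. *Alas1*, the housekeeping enzyme of heme synthesis, fell by 0.77 on the log2 scale (adjusted p = 0.00660). Without replicate 1, the log2 fold change was 1.06 for *Fdx1*, -3.32 for *Fdxr*, and -0.98 for *Alas1*, all called.

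Of 13 regulators of P450 genes, all tested, 12 were higher in CD54+CD31- than in Kit+CD24+ cells, and 9 were higher and 2 lower than in CD31+ cells. Over all genes, 36.1% were higher than in Kit+CD24+ cells, and 34.0% were higher and 31.7% lower than in CD31+ cells. With age 3 rose and 3 fell, and without E18.5 replicate 1, 5 rose and 4 fell. Over all genes, 35.9% rose and 33.5% fell with age (36.8% and 35.9% without that library), so these counts do not set the regulators apart. *Hnf4a* fell from 574, 546, and 558 CPM to 15.6, 122, and 166 CPM (log2 fold change -2.30 ± 0.74, adjusted p = 0.0284). *Nr0b2* and *Nr5a2* were the other genes that fell. *Ppara* had 82.9, 74.2, and 72.4 CPM at E14.5 and 14.3, 70.4, and 89.7 CPM at E18.5 (log2 fold change -0.22 ± 0.57, adjusted p = 0.742), beside the rise of the Cyp4a genes. *Nr1i2*, which encodes the drug receptor PXR, had 52.8, 48.9, and 55.7 CPM at E14.5 and 1.53, 15.0, and 19.4 CPM at E18.5 (adjusted p = 0.0545). *Ahr*, *Arnt*, and *Cebpb* rose. Without replicate 1, *Hnf4a* (log2 fold change -1.79 ± 0.14) and *Nr1i2* (-1.44 ± 0.13) were called lower, *Nr1h4* (1.34 ± 0.14) and *Onecut1* (1.06 ± 0.10) were also called higher, and *Ppara* was not called (0.23 ± 0.12, adjusted p = 0.121). *Hnf4a* is also 1 of the 20 genes of the hepatocyte list, and its E18.5 levels follow the order of that list's sums.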

How the data were processed

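Cells were sorted from digested FL, ribosomal RNA was removed enzymatically, and stranded libraries were made. The submitters' processing notes name cutadapt 1.11, STAR 2.5.0a, featureCounts 1.4.6-p3, and R 3.5.1 with DESeq2, and GRCm38. The authors deposited raw read counts per gene, used here for every test, and a score (the count times a factor of the library), used only to read that factor. Strand setting and handling of multiply aligned reads are not given in the sources used here.

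Counts were tested in edgeR 4.0.16 (R 4.3.3; filterByExpr, TMM, quasi-likelihood test, Benjamini-Hochberg adjustment over all genes, threshold 0.05). The 6 CD54+CD31- libraries formed one fit and the 9 E14.5 libraries another. SEs were taken as the size of the log2 fold change over the root of F. Exon lengths came from GENCODE vM21. DESeq2 1.42.0 served as an alternative. On simulated counts, the age fit of 15629 genes called 33 of 100 genes changed 2-fold, 75 of 100 changed 4-fold, and 6 unchanged genes. Only 200 genes were changed there, whereas 69.4% of all genes were called with age in the data. The simulated shares therefore do not measure the power of the real fit.

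Replicate numbers paired CD54+CD31- with CD31+ libraries, as deviations from group means correlated for every number (0.342, 0.263, and 0.127). In no other comparison did every correlation exceed 0.1.

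Members, role, marker, and partner lists were chosen with earlier results of these data known. Genes named were the highest per kilobase in each group, the largest called differences without overlap, and all bile acid, steroid, retinoid, and vitamin D members. Others named, and the promoter letters, were chosen after their values were seen. A listed regulator is not reported here.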

Additional observations from a re-analysis of the deposited data

How the results depend on the processing

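For the age comparison, the 23 members called higher became 37 and the 5 called lower became 10 without E18.5 replicate 1. The number called lower was 8 in DESeq2, 9 with all 12 libraries in one fit, and 0 when scaled to the hepatocyte list, an alternative chosen after seeing the data that also moved the median log2 fold change of the tested members to 2.96. Leaving out one library at a time gave 21 to 37 members higher and 4 to 10 lower. The share of calls that were higher was 82.1% as reported, 71.9% with all 12 libraries, and 100% when scaled to the hepatocyte list. Scaled to that list, the log2 fold changes of *Cyp2c68* (0.0296), *Cyp20a1* (2.09), *Cyp4v3* (2.26), *Cyp2d22* (0.48), *Cyp4f16* (2.11), and *Cyp2r1* (2.47) turned positive, as did those of *Cyp27b1*, *Cyp2u1*, and *Cyp3a57*, which were not called, so that 9 tested members turned. *Cyp2c37* (0.17, not called) turned negative with the replicate block (-0.41), with all 12 libraries (-0.00906), and without E18.5 replicate 3, the range on leaving out one library being -0.55 to 0.71. All other counts of calls stayed within 1.5 times under the settings run.

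Median log2 fold changes moved more. Against Kit+CD24+ cells the median was 5.17 with the authors' factors, 3.04 with no low count filter, 4.79 with all 12 libraries, 5.51 with only the 6 libraries compared, and 4.75 to 5.28 on leaving out one library. Against CD31+ cells it was 3.31 without genes over 1% of a library, 2.22 with no filter, 1.86 with a mean count of at least 10, 2.49 with all 12 libraries, 3.51 with only the 6 libraries compared, and 1.97 to 3.21 on leaving out one library. Between CD31+ and Kit+CD24+ cells (1.14) it was 1.4999 with the authors' factors, 0.59 with no filter, 1.53 with a mean count of at least 10, 2.03 with only the 6 libraries compared, and 1.112 to 1.72 on leaving out one library. The number of members tested changed with the filter and the libraries, and its part was not tested.

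With the replicate number as a block, 21 members were higher and 4 lower with age (*Cyp2a5*, *Cyp7a1*, and *Cyp2b13* were lost), 35 and 2 against Kit+CD24+ cells, 32 and 8 against CD31+ cells, and 23 and 2 between CD31+ and Kit+CD24+ cells. Only for CD54+CD31- against CD31+ cells did the numbers pair the libraries.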

Other observations

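Some P450 genes fall outside the naming rule, and 6 of these 29 genes reached a mean of 1 CPM in a group. *Cyp51*, the sterol demethylase of cholesterol synthesis, had 374, 410, and 415 CPM in E14.5 CD54+CD31- cells, above every member of the rule in each library. At E18.5 it had 33.1, 69.5, and 84.0 CPM (log2 fold change -2.50 ± 0.32, edgeR adjusted p = 0.000531), and it had 9.26 to 11.8 CPM in CD31+ cells and 19.9 to 22.4 CPM in Kit+CD24+ cells. *Ptgis*, the prostacyclin synthase, had at most 0.472 CPM at E14.5 in CD54+CD31- cells, 14.3, 10.4, and 11.5 CPM at E18.5, and 4.40, 3.22, and 2.19 CPM in CD31+ cells. *Tbxas1*, the thromboxane synthase, was highest in CD31+ cells, with 17.8, 24.9, and 18.6 CPM against 7.36 to 8.64 CPM in E14.5 CD54+CD31- cells.

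Among the pseudogenes, *Cyp3a63-ps* had 0.679, 0.315, and 0.247 CPM at E14.5 and 0.170, 4.37, and 5.68 CPM at E18.5, and *Cyp2d37-ps* had 3.11, 1.26, and 1.38 CPM at E14.5 and 0.124, 2.87, and 4.04 CPM at E18.5. In both, E18.5 replicate 1 was the lowest library. Whether reads were split between these copies and the coding genes was not tested.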
